A study of Mus musculus with 4 samples.

Results

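The comparison set 4 embryonic mouse brain regions against each other as 2 sides: cerebellum with olfactory bulb, and pontine nucleus with superior colliculus. A gene was said to separate the sides when both levels of a side lay above both levels of the other, and the distance between the lower level of the upper side and the higher level of the lower side was its gap, in log2 units. Of 10908 genes compared, 4787 separated the sides. The cerebellum and bulb lay above for 2282 genes (20.9% of those compared) and below for 2505 (23%). A gap of at least 1 log2 unit, which is at least 2-fold, was called, and it was reached by 89 genes above (0.816%) and 11 genes below (0.101%).

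Total RNA was taken from embryos of the outbred ICR stock at embryonic day 17.5 and hybridised to 4 Affymetrix whole-transcript arrays, 1 per region. Each array held a pool: the cerebellum came from 13 mice, the bulb from 14, the pontine nucleus from 15 and the colliculus from 16. No region was measured more than once, so levels are given without SD or test, and what belongs to a region and what belongs to its pool cannot be told apart. The regions of a side are different tissues, not replicates of each other, and the labels give no treatment or genotype.

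All these regions are made by progenitors that divide near a ventricle or, in the cerebellum, also beneath the outer surface. Late in gestation the cerebellum and the olfactory bulb are still gaining neurons: granule cell precursors multiply in the external granule layer of the cerebellum, and interneuron precursors keep arriving in the bulb through the rostral migratory stream, where some still divide. Neurons of the pontine nucleus and the superior colliculus are for the most part born earlier, and by late gestation many of them are growing axons and forming synapses.

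The labelled tissues were checked against genes that define them. Atoh1, the factor of granule cell precursors, read 10.70 on the cerebellum array and at most 7.70 elsewhere. Dlx1, a factor of bulb interneurons, read 12.89 in the bulb and at most 7.84 elsewhere. Barhl1, expressed by rhombic lip derivatives, read 12.50 in the pontine nucleus and 11.25 in the cerebellum, and Gata3, a factor of midbrain GABAergic neurons, read 10.80 in the colliculus and at most 8.06 elsewhere. Gata3 separated the sides with the cerebellum and bulb below, a gap of -0.76.

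The array medians lay between 8.07 and 8.13, and 10908 of 19938 named genes exceeded 8.56, the middle of the gene levels, in 1 region or more and were compared. The background set was made of 207 genes of vomeronasal receptors and beta defensins. Their gaps lay between -0.22 and 0.33, none was called, and 95% of their levels lay under 7.32. Of that set 49 genes nevertheless separated the sides with the cerebellum and bulb above and 27 with them below, so a small gap by itself carries little. Where the lower levels of a gene lie under 7.32 its gap is a lower bound, which held for 6 of the 89 genes above and for 0 of the 11 below. A further 7 genes above and 2 below had a gap of at least 1 but lay under the level floor of 8.56.

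The calls were asymmetric. Besides 89 against 11 genes at a gap of 1, there were 274 against 127 at a gap of 0.5 and 3 against 0 at a gap of 2. The count of genes that merely separated the sides turned with the level floor: above the floor it was 2282 above and 2505 below, and over all 19938 genes it was 4785 above (24%) and 3350 below (16.8%). List counts further on are over all measured members and stand against these 24% and 16.8%. Most members of the synaptic, channel and cytoskeleton lists lie above the floor, where the shares are 20.9% above and 23% below. For those lists the latter shares are the closer comparison. Leaving out an array loosens the rule, since a side then has a single level: 230 genes lay above and 89 below without the cerebellum, 238 and 40 without the bulb, 146 and 116 without the pontine nucleus, and 245 and 128 without the colliculus. By side means, 291 genes (2.67%) lay at least 1 log2 unit above and 133 (1.22%) below.

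**Figure D1:**
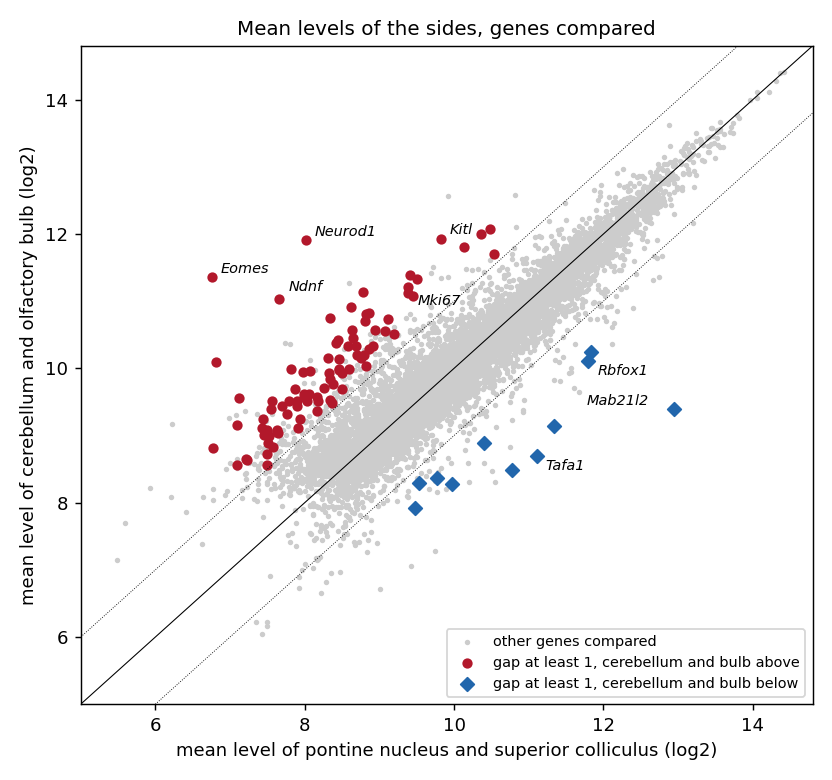
Mean log2 level of cerebellum and olfactory bulb (vertical axis) against mean log2 level of pontine nucleus and superior colliculus (horizontal axis), 1 point per compared gene, with dotted lines at a difference of 1. The 89 genes with a gap of at least 1 above (red circles) lie mostly between 7 and 10 on the horizontal axis, and the 11 genes below (blue diamonds) are spread over the other side.

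The 3 marker genes of the comparison were all higher in the cerebellum and bulb. Mki67, which encodes the Ki-67 protein of dividing cells, read 11.50 in the cerebellum, 10.93 in the bulb, and 9.50 and 9.27 in pontine nucleus and colliculus, a gap of 1.43 (2.69-fold). Top2a, the topoisomerase that untangles chromosomes before mitosis, read 10.83, 10.31, 8.76 and 8.50 in the same order, a gap of 1.55 (2.93-fold). Both genes were highest in the cerebellum and lowest in the colliculus, and for both the distance between regions of a side was at most 0.57, well under the gap. Neurod1, a bHLH factor that drives the differentiation of granule and other excitatory neurons, read 12.30, 11.52, 6.85 and 9.18, a gap of 2.34 (5.06-fold). Its lower side was uneven, since the colliculus lay 2.33 above the pontine nucleus, whose level was within the range of the background set. A second Top2a probe set lay at background in all regions, between 4.10 and 4.71.

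Genes of mitosis and cytokinesis were the largest group among the genes called above. Of the 89 genes, 43 (48.3%) belonged to the 6 cell cycle lists, 8 were histone genes and 38 were neither. From the other direction, 43 of the 166 compared members of those lists (25.9%) were called above and none below. Tissue was measured in bulk, so a smaller number of dividing cells and less RNA per dividing cell cannot be told apart here or in the groups that follow. Among the 89 genes the cerebellum was the highest region for 69 and the bulb for 20, and the colliculus was the lowest for 62, the pontine nucleus for 24, with 3 ties. In 77 of them both regions of each side lay within 1 log2 unit of each other. The cerebellum and bulb were at least 1 apart for 9 genes, and the pontine nucleus and colliculus for 3.

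**Figure D2:**
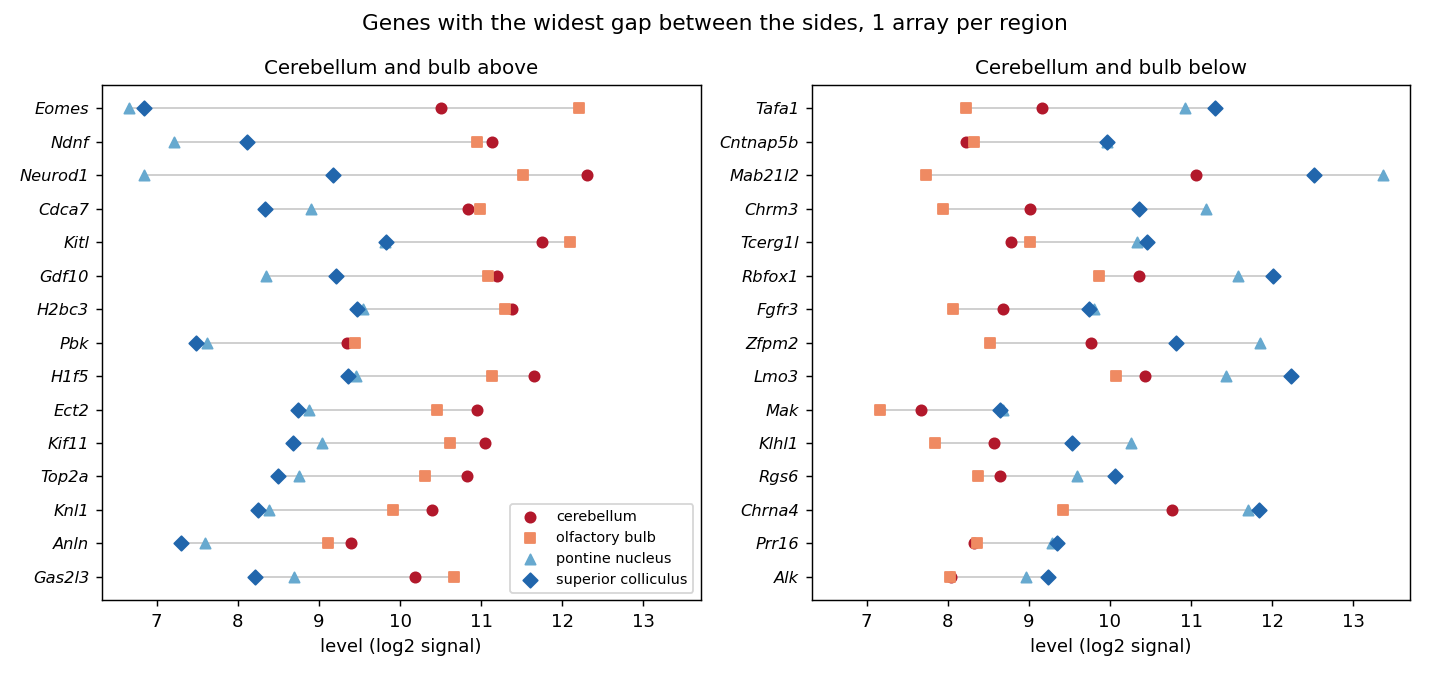
Log2 level of the 15 genes with the widest gap in each direction, leaving out microRNA genes, with 1 marker per region. In the left panel Eomes, Ndnf and Neurod1 show the widest gaps (3.66, 2.84 and 2.34) and the cell division genes under them have tight pairs on both sides; in the right panel the gaps run from -1.76 for Tafa1 to -0.92 for Alk, and the regions of a side are often far apart.

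All 69 measured genes of the mitosis and cytokinesis list had a higher mean in the cerebellum and bulb. Of these, 68 separated the sides that way, against 24% of all 19938 genes, and 39 were called, against 0.481%. Their median difference of side means was 1.38 log2 units. Bub3 alone did not separate the sides, at 10.90, 10.87, 10.95 and 10.70. The smallest gaps of the others included 0.11 for Cdc25b and 0.31 for Cks1b. One listed gene had no singly named probe set and is unnamed here.

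The widest gaps of the list were those of Pbk, Kif11, Ect2 and Top2a. Pbk, a mitotic kinase, had the widest gap of the list and read 9.35 in the cerebellum, 9.45 in the bulb, against 7.62 in pontine nucleus and 7.49 in colliculus. Kif11, the kinesin that pushes spindle poles apart, read 11.05, 10.61, 9.04 and 8.68, a gap of 1.57. Ect2, the exchange factor that places the contractile ring, read 10.95, 10.45, 8.88 and 8.74, also a gap of 1.57. In these 3 genes the regions of a side stayed within 0.50 of each other and the sides did not overlap.

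At the kinetochore, the scaffold gene Knl1 had a gap of 1.53, the checkpoint kinase genes Bub1 and Bub1b each 1.45, and Spc25 of the Ndc80 complex 1.37. The centromeric histone gene Cenpa read 10.39, 10.01, 8.69 and 8.71, a gap of 1.30. For cytokinesis, Anln, which encodes the scaffold anillin, had a gap of 1.52 and Prc1, which bundles the central spindle, 1.28. Cdk1, the kinase that starts mitosis, read 10.87, 10.28, 9.01 and 8.88, a gap of 1.27, and its partner cyclin gene Ccna2 read 12.07, 11.55, 10.36 and 9.91, a gap of 1.19. In Cenpa, Cdk1 and Ccna2 the cerebellum was highest and the bulb next. Plk1, a kinase of spindle assembly, lay at the limit with a gap of 1.0, and Smc4, a condensin subunit, just under it with 0.97.

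The order of the 4 regions was nearly the same throughout the list. Of the 62 members above the level floor, 51 ran from cerebellum through bulb and pontine nucleus to colliculus. Over all 69, the cerebellum exceeded the bulb for 67, by a median of 0.37, and the pontine nucleus exceeded the colliculus for 58, by a median of 0.22. Both steps within a side were small beside the median side difference of 1.38.

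**Figure D3:**
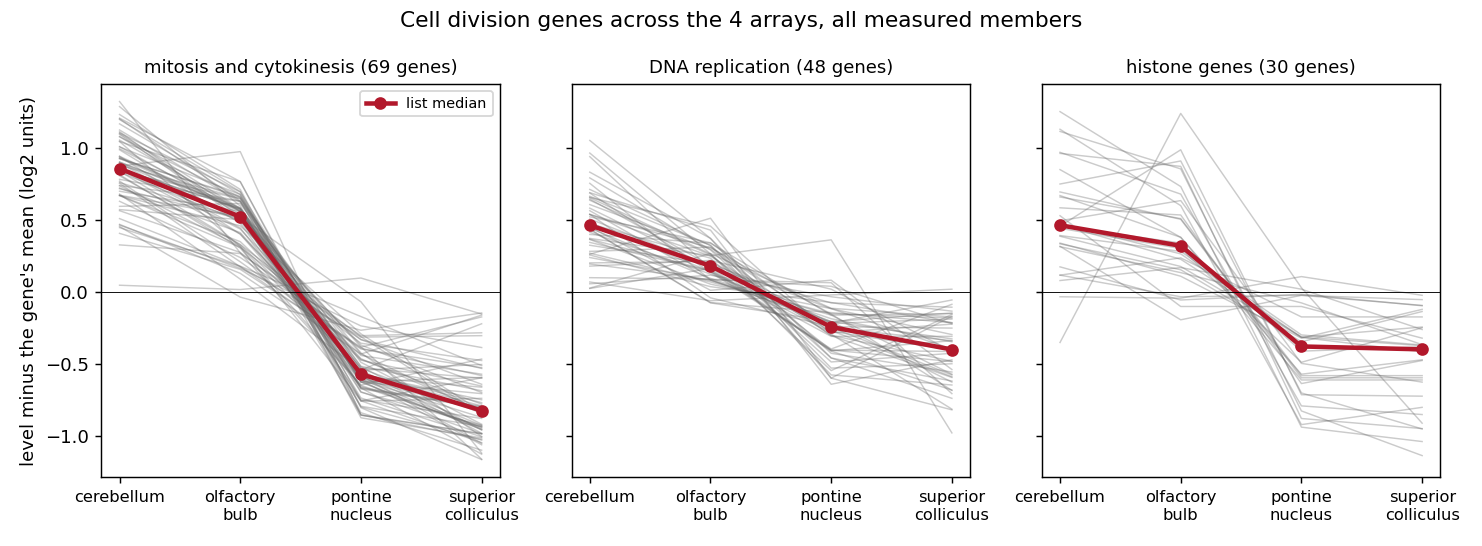
Log2 level minus the gene's own mean over the 4 regions, 1 grey line per gene, for 69 mitosis genes, 48 DNA replication genes and 30 histone genes; the red line joins the list medians. Each list steps down between bulb and pontine nucleus, with the largest step for mitosis, where the median side difference is 1.38 against 0.63 for DNA replication.

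DNA replication genes lay the same way with smaller gaps. All 48 measured members had a higher mean in the cerebellum and bulb, 45 separated the sides and 0 were called. The median side difference was 0.63, against 1.38 for the mitosis list. Mcm2, a subunit of the replicative helicase, read 10.95, 10.27, 9.30 and 9.08, a gap of 0.97 just under the limit. Tyms, which makes thymidylate for DNA, read 9.80, 9.54, 8.47 and 8.64, a gap of 0.90. Pcna, the sliding clamp, had a gap of 0.61, and Dnmt1, the maintenance DNA methyltransferase, did not separate the sides, with all levels between 10.92 and 11.05. By side means instead of gaps, 8 members lay at least 1 apart.

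Most regulators of G1 and S phase also lay above, though few were called and some did not separate the sides. Of 28 measured, 22 separated the sides above and 0 below, 3 were called and the median side difference was 0.59. Ccnd2, the D cyclin of cerebellar and other neural progenitors, read 11.96 in the cerebellum, 12.18 in the bulb, and 10.73 and 10.22 in pontine nucleus and colliculus, a gap of 1.23. Ccnd1 had a gap of 0.36, while Ccnd3 (9.65, 9.23, 9.48 and 9.27) did not separate the sides. Foxm1, a transcription factor that turns on mitotic genes, had a gap of 1.12, and E2f8, a repressor of the E2F family, 1.03. Mycn, the Myc gene of granule cell precursors, read 10.93, 10.29, 9.68 and 9.80, a gap of 0.49, and Myc did not separate the sides.

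The remaining cell cycle lists were replication-coupled repair, chromatin of dividing cells and Cdk inhibitors. Of 18 repair genes 14 separated the sides above and 1 was called, Mms22l, with a gap of 1.0; the median side difference was 0.76. Of 20 chromatin genes 14 separated the sides above and 1 was called, Hmgb2, a DNA-bending protein of dividing cells, with 9.69, 9.56, 8.13 and 7.99. Its other 3 probe sets gave gaps of 1.42, 1.51 and 1.69. Of 7 Cdk inhibitor genes 3 separated the sides above and 1 was called: Cdkn2c, which encodes an inhibitor of Cdk4 and Cdk6, read 8.91, 9.16, 7.88 and 7.41. The median side differences of the chromatin and inhibitor lists were 0.40 and 0.15. No member of these lists separated the sides below.

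Histone genes were added as a list after the leading genes had been seen, by their symbols, and the list includes a few linker histones that are not tied to S phase. Of 30 measured, 24 separated the sides above, against 24% of all genes, and 1 below. Called members numbered 10, of which 8 lay above the level floor, against 0.481% of all genes. Leading called genes prompted the list, so this count adds no separate support. The median side difference was 0.77. H2bc3 read 11.38 in the cerebellum, 11.29 in the bulb, against 9.54 in pontine nucleus and 9.47 in colliculus, a gap of 1.75. H1f5, a linker histone gene, read 11.65, 11.13, 9.46 and 9.36, a gap of 1.67. The cerebellum and bulb were 0.09 apart for H2bc3 and 0.52 apart for H1f5. H1f10, a linker histone gene of cells at rest as well as dividing cells, had a gap of 0.29. Histone genes of a cluster are close in sequence, so how their probe sets share signal is uncertain.

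Promoters of mitotic genes are known for a pair of elements, the cell cycle homology region (CHR), which is bound by the DREAM and MuvB complexes, and upstream CCAAT boxes, which are bound by NF-Y. Replication genes are known for E2F sites. Since members of these lists lay apart in the same direction, the 250 bases before each start in the RefSeq promoter table (GRCm38.p6) were searched on both strands for CHR (TTTGAA, or its variant TTCGAA), the CCAAT box, and an E2F site (TTTGGCGC, TTTCCCGC, TTTCGCGC or TTTGCCGC). CHR and CCAAT stood together in 37.9% of 58 promoters of compared mitosis genes, against 6.02% of all 32851 promoters in the table and 4.33% of those of compared genes. The share was 14.6% of 41 promoters of compared replication genes. An E2F site was found in 22% of the replication promoters, 6.90% of the mitosis promoters and 1.86% of all. The table held 53 of the 62 compared mitosis genes.

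The size of a gene's gap was not mirrored in this count. CHR and CCAAT stood together in 39.4% of 33 promoters of called mitosis genes and in 36.0% of 25 promoters of mitosis genes that were not called. Among the 10 promoters of genes called below, which belong to 8 genes, 0 held the pair. That is too few promoters to differ visibly from the 4.33% of compared genes. A match is a run of letters in this window and not a site shown to be bound.

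Stretches of 100 bases show the arrangement in 4 called mitosis genes and 2 called histone genes, with CHR and CCAAT matches on either strand in capitals. They are printed 5′ to 3′ on the strand of the gene. Kif11 is at chr19:37376282-37376381 (plus strand), Top2a at chr11:99024200-99024299 (minus), Cdk1 at chr10:69352913-69353012 (minus), Cdc20 at chr4:118437344-118437443 (minus), H2bc3 at chr13:23746634-23746733 (plus) and H1f5 at chr13:21780626-21780725 (minus). Each window ends at the base before the start, except that of Top2a, which runs from -110 to -11 because an alternative start lies close upstream.
Kif11: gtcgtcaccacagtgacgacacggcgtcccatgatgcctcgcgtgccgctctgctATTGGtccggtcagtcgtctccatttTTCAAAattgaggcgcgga
Top2a: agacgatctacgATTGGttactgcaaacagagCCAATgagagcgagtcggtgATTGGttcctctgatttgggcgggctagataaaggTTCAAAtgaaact
Cdk1: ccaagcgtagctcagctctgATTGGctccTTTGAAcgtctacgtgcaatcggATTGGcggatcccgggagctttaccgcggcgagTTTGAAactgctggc
Cdc20: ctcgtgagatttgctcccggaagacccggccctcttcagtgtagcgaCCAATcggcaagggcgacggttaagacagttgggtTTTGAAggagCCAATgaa
H2bc3: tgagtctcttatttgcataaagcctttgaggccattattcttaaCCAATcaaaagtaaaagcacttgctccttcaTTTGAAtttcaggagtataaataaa
H1f5: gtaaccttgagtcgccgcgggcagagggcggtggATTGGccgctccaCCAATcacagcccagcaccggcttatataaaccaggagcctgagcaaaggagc

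In Kif11, Top2a, Cdk1 and Cdc20 a CHR begins between 15 and 23 bases before the start, and a CCAAT box lies upstream of it. Cdk1 has a second CHR beginning at -71. The H2bc3 window also holds a CHR, beginning at -25, whereas in H1f5 only CCAAT boxes were found. The mitosis genes were picked, in order of gap, among called genes with both elements in the last 100 bases, 1 entry in the promoter table and a window outside every gene of the RefSeq table; the histone genes were picked by gap with at least 1 element in the window.

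The 38 genes outside the cell cycle and histone lists included transcription factors, secreted factors and further genes of dividing cells. Eomes, the T-box factor of intermediate progenitors, unipolar brush cells and bulb projection neurons, had the widest gap of all genes. It read 10.51 in the cerebellum, 12.21 in the bulb, and 6.66 and 6.85 in pontine nucleus and colliculus, a gap of 3.66 (12.6-fold), with both lower levels in the background range. Tbr1, a T-box factor of glutamatergic neurons that follows Eomes, read 7.98, 12.22, 6.87 and 6.75. Its gap of 1.11 rested on the modest level of the cerebellum, and it was mainly a gene of the bulb. Neurod4, a bHLH factor upstream of neuronal differentiation, read 9.16, 8.48, 6.38 and 7.17, a gap of 1.31.

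Of 17 measured proneural and neuronal bHLH genes 7 separated the sides above, 0 below and 2 were called, with a median side difference of 0.38. Neurog1 and Neurog2, which commit progenitors to the neuronal fate, were not called, with gaps of 0.76 and 0.65. Neurod2 ran another way, at 11.41, 11.15, 12.22 and 9.58, so that the pontine nucleus was highest and the colliculus lowest. Genes of newborn neurons were divided: of 21 measured, 7 separated the sides above and 7 below, 2 were called above and the median was -0.02. Those below had gaps no wider than 0.12, such as Dpysl3, a collapsin response mediator, at 13.04, 13.14, 13.43 and 13.26, and Elavl3, a neuronal RNA-binding protein, at 12.85, 12.81, 12.96 and 13.0.

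Secreted factors were among the widest gaps. Ndnf, a secreted neurotrophic factor, read 11.13 in the cerebellum, 10.95 in the bulb, against 7.21 in pontine nucleus and 8.11 in colliculus, a gap of 2.84 (7.16-fold). Kitl, the ligand of the receptor kinase Kit, read 11.75, 12.10, 9.82 and 9.83, a gap of 1.92. Gdf10, a TGF-beta family ligand related to Bmp3, read 11.20, 11.08, 8.35 and 9.21, a gap of 1.87. In all 3 the cerebellum and bulb were within 0.35 of each other. Islr, Mef2c, Etv5, Ndp and Medag were picked after their values were seen. Islr read 9.75, 9.65, 7.46 and 8.27, and Ndp, which encodes the Frizzled-4 ligand norrin, 9.14, 10.83, 7.53 and 8.10. Mef2c, a factor of differentiating neurons, read 10.10, 11.52, 8.84 and 8.79. Medag read 9.94, 8.36, 7.35 and 6.85, with the cerebellum well above the bulb.

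Also among the 15 widest were Cdca7 and Gas2l3. Cdca7, an E2F and Myc target that helps recruit the remodeller Hells, read 10.84, 10.98, 8.90 and 8.34, a gap of 1.94. Gas2l3, a cytoskeletal protein of dividing cells, read 10.19, 10.66, 8.69 and 8.21, a gap of 1.5. In both the bulb was slightly above the cerebellum. Among the 38 genes outside the cell cycle and histone lists the colliculus was lowest for 17 and the pontine nucleus for 20. These 38 still hold genes of dividing cells that the lists lack. Cdca7, Gas2l3, Kif14 and Pclaf are examples, and all were lowest in the colliculus. Others of the 38 differed: Cdca7l read 7.84 in the pontine nucleus and 7.96 in the colliculus, Neil3 7.17 and 7.25, and Fbxo5 7.91 in both. The split is therefore not one of genes unrelated to division.

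In the Notch pathway, by which neighbouring progenitors hold each other back from differentiation, receptors lay above. Notch2 read 10.01 in the cerebellum, 9.97 in the bulb, and 8.38 and 8.80 in pontine nucleus and colliculus, a gap of 1.17, and Notch1 read 11.14, 11.02, 10.07 and 10.40, a gap of 0.62. Mfng, a glycosyltransferase that modifies Notch receptors, had a gap of 1.03. The ligand genes did not follow: Jag2 read 9.50, 9.73, 10.21 and 10.25, a gap of -0.48, Dll3 had a gap of -0.06, and Dll1 and Jag1 did not separate the sides. The target Hes5 had a gap of 0.13 and Hes1 of 0.02. In all, of 16 measured members 6 separated the sides above, 2 below and 2 were called, with a median of 0.26.

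In the sonic hedgehog pathway, the mitogen pathway of granule cell precursors, 0 of 14 measured members were called, 6 separated the sides above and 0 below, and the median was 0.27. Gas1, a co-receptor, read 9.95, 10.13, 8.61 and 9.46, a gap of 0.49, and Smo, the signal transducer, 11.28, 10.66, 10.18 and 10.21, a gap of 0.45. Gli1, a direct target, was highest in the cerebellum with 9.33 against 8.55, 8.25 and 8.49, a gap of 0.06. Ptch1, which is receptor and target, did not separate the sides, since the pontine nucleus (11.02) exceeded the bulb (10.63).

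Radial glia and astrocyte genes tended to lie above. Of 30 measured, 17 separated the sides above and 1 below, 0 were called and the median was 0.46. Gja1, the gap junction protein connexin 43, read 10.38, 10.62, 9.50 and 9.01, and Pdpn, a surface glycoprotein, 10.20, 10.05, 8.87 and 9.17, each with a gap of 0.88. Slc1a3, the glial glutamate transporter, had a gap of 0.75 and Nes, the intermediate filament nestin of progenitors, 0.62. Fabp7, the radial glial lipid-binding protein, was almost level at 14.03, 13.97, 14.00 and 13.93, and Aqp4, the water channel of astrocyte endfeet, lay below with a gap of -0.16.

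Lists for the neurons of single regions did not describe the sides. Of 28 measured granule lineage genes 7 separated the sides above and 1 below, with a median of 0.09, and besides Neurod1 only Mfap4, a matrix protein, was called, at 11.75, 9.75, 8.20 and 8.47. Rbfox3, which encodes the NeuN antigen, lay below with a gap of -0.40. Of 21 bulb interneuron genes 6 separated the sides above, 1 below and 0 were called. Their median of 0.77 came from the bulb, which exceeded the cerebellum for all but 1 member: Dlx2, for example, read 11.01 in the bulb and 7.50, 6.86 and 7.11 in the other regions.

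**Figure D4:**
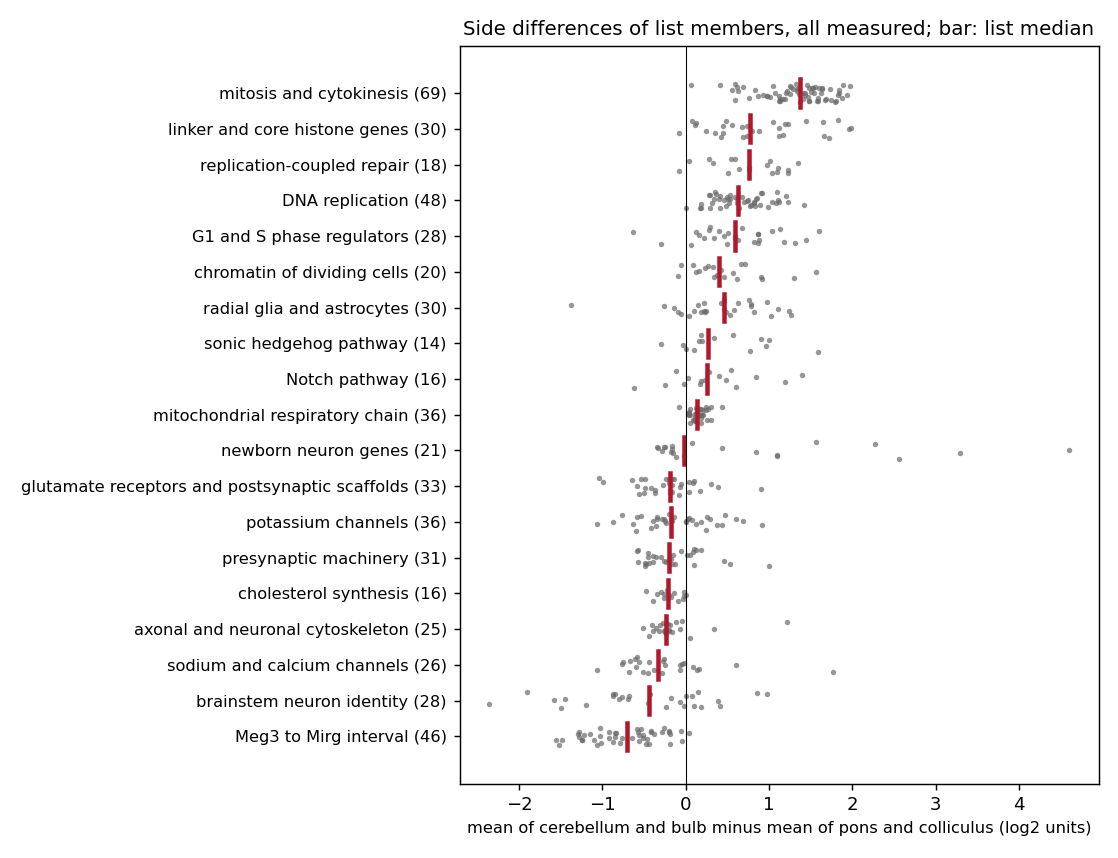
Mean of cerebellum and bulb minus mean of pontine nucleus and colliculus, in log2 units, for each measured member of 19 gene lists (grey points, list size in parentheses) with the list median as a red bar. Cell division lists lie to the right of 0, with mitosis at 1.38, and the neuronal lists lie slightly to the left, while the Meg3 to Mirg interval has the lowest median at -0.71. A difference of side means can come from a single region and does not show that both regions of a side lie apart.

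The genes that lay below had narrower gaps and less even sides. Of the 11 genes called below, the bulb was the lowest region for 8 and the cerebellum for 3, and the pontine nucleus was the highest for 6 and the colliculus for 4, with 1 tie. Tafa1, a secreted chemokine-like protein of the brain, read 9.16 in the cerebellum, 8.23 in the bulb, against 10.92 in pontine nucleus and 11.29 in colliculus, a gap of -1.76 (3.39-fold). Cntnap5b, a neurexin-related adhesion protein, read 8.23, 8.33, 9.97 and 9.97, a gap of -1.64. It was the most even of these genes, with the regions of each side within 0.10.

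Mab21l2, a developmental gene of the midbrain and eye, read 11.06, 7.73, 13.37 and 12.51, a gap of -1.45, with the bulb 3.33 below the cerebellum. Chrm3, the M3 muscarinic acetylcholine receptor, read 9.02, 7.94, 11.18 and 10.36, a gap of -1.34. Tcerg1l read 8.78, 9.01, 10.34 and 10.46, a gap of -1.33. All 3 separated the sides, but in Mab21l2 and Chrm3 the cerebellum and bulb were over 1 log2 unit apart.

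Rbfox1, a splicing factor of maturing neurons, read 10.36, 9.86, 11.58 and 12.01, a gap of -1.22. Zfpm2, a cofactor of Gata proteins, read 9.77, 8.52, 11.85 and 10.82, and Lmo3, a LIM-only protein, 10.43, 10.07, 11.43 and 12.23, with gaps of -1.05 and -1.0. Fgfr3, a fibroblast growth factor receptor of ventricular progenitors and astrocytes, read 8.68, 8.06, 9.80 and 9.74, a gap of -1.06. Etv5, an ETS factor that FGF signalling turns on, lay the other way at 10.49, 10.17, 8.77 and 9.07, a gap of 1.10. Just outside the limit were Mak with -0.98, Klhl1 with -0.96, Rgs6 with -0.95 and the nicotinic receptor subunit gene Chrna4 with -0.94, followed by Prr16 with -0.93 and the receptor kinase gene Alk with -0.92.

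Most of the neuronal cytoskeleton list lay slightly below. Of 25 measured members 15 separated the sides below and 1 above, 0 were called and the median was -0.23. The shares were 16.8% below and 24% above over all genes, and 23% and 20.9% over the compared genes. Ank3, the ankyrin of the axon initial segment, read 11.83, 11.87, 12.20 and 12.30, a gap of -0.33, and Mapt, the microtubule protein tau, 11.62, 11.81, 12.12 and 12.10, a gap of -0.29. Gaps of the background set ran from -0.22 to 0.33. The gaps of Ank3 and Mapt thus lay a little beyond its widest below, and were no larger in size than its widest above. Neurofilament genes did not join, as the cerebellum was the highest region for Nefl (12.98) and Nefm (11.07).

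Of 31 presynaptic genes 10 separated the sides below and 2 above, with a median of -0.20. Pclo, the active zone scaffold piccolo, read 11.20, 11.48, 11.83 and 11.81, a gap of -0.33, and Rims1, also of the active zone, 9.98, 10.23, 10.55 and 10.82, a gap of -0.32. Of 33 glutamate receptor and scaffold genes 8 separated the sides below and 1 above, with a median of -0.18. The 24.2% below was near the 23% of compared genes, while the 3.03% above was under their 20.9%. Median levels over that list were 11.13 for the colliculus, 10.51 for the bulb, 10.43 for the cerebellum and 10.34 for the pontine nucleus. The pontine nucleus exceeded the colliculus for 6 of the 33 members. The median of -0.18 thus does not describe both regions of that side. Grin2b, the NMDA receptor subunit of young neurons, read 10.43, 11.42, 12.05 and 11.89, a gap of -0.47. Of 19 GABA and glycine genes 1 separated the sides each way, with a median of -0.04. Slc32a1, the vesicular transporter of both transmitters, had a gap of 0.07, and the glycine receptor gene Glra2, at 11.14, 10.22, 12.57 and 11.72, a gap of -0.58. None of these 3 lists had a called member.

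Ion channel genes were alike. Of 36 potassium channel genes 10 separated the sides below and 1 above, with a median of -0.17. The 27.8% below was not far from the 23% of compared genes, and the 2.78% above was under their 20.9%. Kcnt2, a sodium-activated channel, read 8.14, 7.85, 9.08 and 9.03, a gap of -0.89, and Kcnd2, an A-type channel, 11.39, 11.54, 12.18 and 12.28, a gap of -0.64. Of 26 sodium and calcium channel genes 10 separated the sides below and 3 above, with a median of -0.33. Cacna1h, a T-type calcium channel, read 9.71, 9.74, 10.30 and 10.49, a gap of -0.56, and Scn3a, a sodium channel of the embryonic brain, 9.51, 9.89, 10.30 and 10.47, a gap of -0.41. Cacng5 lay above with a gap of 0.64. No channel gene of either list was called.

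Of 28 brainstem neuron identity genes 8 separated the sides below, 2 above and 0 were called, with a median of -0.44. The widest was Gata3 with a gap of -0.76, and it was a gene of the colliculus, as was Gata2 with -0.42. Median levels over these 28 genes were highest for the colliculus (9.42), then cerebellum (9.005), pontine nucleus (8.245) and bulb (8.005). The cerebellum exceeded the bulb for 23 members. The median of -0.44 thus does not describe the sides as blocks, since the cerebellum median lay above that of the pontine nucleus. Of 23 neuropeptide genes 4 separated the sides below, which is near the 16.8% of all genes below, and 0 above, against 24% of all genes. Their median of 0.005 turned to -0.09 over the members above the level floor. Adcyap1, which encodes PACAP, read 8.85, 8.34, 11.36 and 9.45, a gap of -0.60. Of 39 axon guidance genes 4 separated the sides above (10.3%) and 6 below (15.4%), with a median of -0.20. All but 1 lay above the level floor, and both shares were under the 20.9% and 23% of compared genes. Efnb2 and the netrin receptor gene Dcc had gaps of 0.52 and 0.45, and Epha7 and Sema3f of -0.32 and -0.24.

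Among metabolic genes, 7 of 16 cholesterol synthesis genes separated the sides below and 0 above, with a median of -0.21. Cyp51, the lanosterol demethylase, read 10.52, 10.93, 11.36 and 11.05, a gap of -0.12. The cerebellum was the lower region of its side for all 16. Respiratory chain genes went the other way by less: 15 of 36 separated the sides above and 0 below, with a median of 0.14. The widest was Ndufa2 at 10.15, 10.42, 9.88 and 9.82, a gap of 0.27. All gaps of both lists lay within the range of the background set, -0.22 to 0.33.

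A cluster of microRNA and long noncoding RNA genes on chromosome 12 lay below as a block. The imprinted Dlk1-Dio3 domain carries the noncoding genes Meg3, Rian and Mirg, which are read from the maternal chromosome, and many microRNA hairpins lie along it. Mir377 and Mir382 were among the 11 genes called below, and the interval from Meg3 to Mirg was then taken as a list, after those values were seen. Of 86 genes that the RefSeq table places there 46 were measured. Of these 38 separated the sides below, against 16.8% of all genes, and 1 above, 3 were called below, against 0.0652% of all genes, and the median side difference was -0.71. Mir377 and Mir382, which prompted the list, are among the 3 called, so this count adds no separate support.

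Mir377 read 8.06 in the cerebellum, 7.78 in the bulb, and 9.78 and 9.18 in pontine nucleus and colliculus, a gap of -1.12. Mir382 read 8.27, 8.31, 9.72 and 9.34, a gap of -1.03. Mir136 read 6.71, 7.0, 8.04 and 8.24, a gap of -1.04, but lay under the level floor, and its lower side was within the background range. For Mir377 and Mir382 the pontine nucleus was highest, and over the interval it exceeded the colliculus for 42 of 46 genes, by a median of 0.50.

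The long transcripts of the interval had smaller gaps. Meg3 read 11.85, 11.52, 12.32 and 12.18, a gap of -0.33, and Rian 9.18, 9.26, 10.33 and 9.94, a gap of -0.68. The retrotransposon gene Rtl1, which is not a noncoding gene, read 7.92, 7.71, 8.28 and 8.18, a gap of -0.26. All 3 kept the sides apart. Genes of the interval may be parts of the same long transcripts, so their values are not independent of each other. Only 20 of the 46 lay above the level floor. The RNA was labelled by a whole-transcript protocol from column-purified total RNA, so these probe sets report transcripts that hold the hairpin, and mature microRNAs were not measured.

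The mature microRNAs of the 3 called genes are shown because their seeds decide which messages they bind. They are RefSeq sequences (GRCm38.p6) on the plus strand, with the seed, bases 2 to 8, in capitals, and lie at chr12:109740515-109740536 and chr12:109740553-109740574 for miR-377, chr12:109733781-109733802 and chr12:109733819-109733840 for miR-382, and chr12:109595331-109595352 and chr12:109595366-109595387 for miR-136.
miR-377-5p: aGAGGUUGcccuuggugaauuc
miR-377-3p: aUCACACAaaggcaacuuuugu
miR-382-5p: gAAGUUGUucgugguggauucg
miR-382-3p: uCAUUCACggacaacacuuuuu
miR-136-5p: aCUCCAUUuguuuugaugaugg
miR-136-3p: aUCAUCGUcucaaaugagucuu

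No seed is shared among these 6. Among the mature sequences of all measured hairpins of the interval that the table holds, 2 seeds were shared, AUGUAAC by miR-379-3p and miR-411-3p and UGGAUAU by miR-376b-5p and miR-376c-5p. The host probe sets of these 4 had gaps of -0.75, -0.67, -0.82 and -0.22, at levels mostly within the background range.

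**Figure D5:**
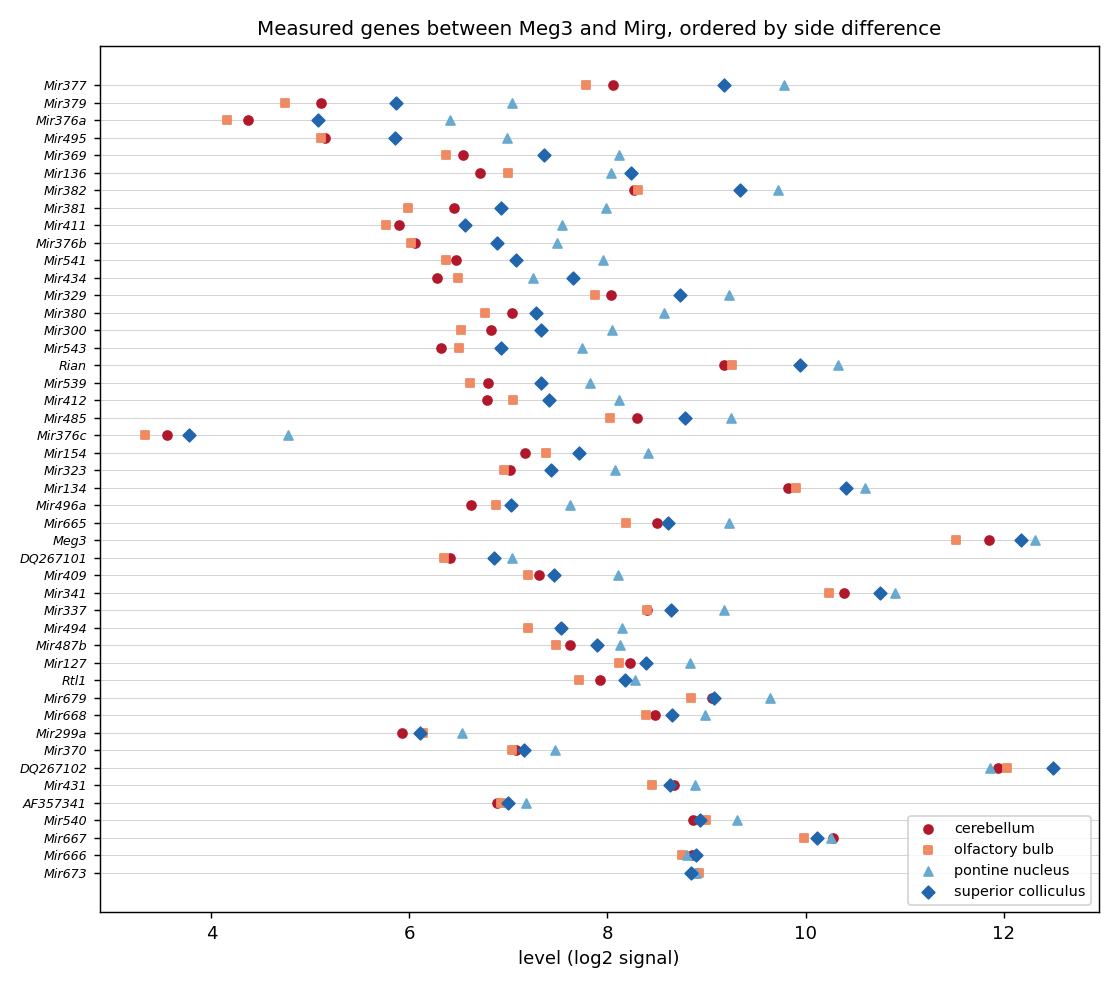
Log2 level of the 46 measured genes between Meg3 and Mirg on chromosome 12 in each region, ordered by the difference of side means. In 38 of them both red markers (cerebellum, bulb) lie left of both blue markers (pontine nucleus, colliculus), with the widest gap for Mir377 (-1.12).

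Markers of other cells in the tissue were set beside these results. Of 19 oligodendrocyte lineage genes 1 separated the sides above and 2 below, with a median of -0.10, and Mbp, the myelin protein, read 8.96, 8.92, 9.26 and 8.95. Of 18 blood vessel genes 1 separated above and 4 below, with a median of 0.0025, and Cldn5, the tight junction protein of brain endothelium, read 10.53, 10.59, 10.46 and 10.64. Of 15 microglia genes 7 separated above and 1 below, with a median of 0.17, and Cx3cr1 read 9.27, 9.41, 9.09 and 9.24. None of these lists had a called member.

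Of 13 meningeal and fibroblast genes 5 separated the sides above and 0 below, with a median of 0.36, and Col1a1 read 8.70, 9.07, 8.56 and 8.58. Of 10 choroid plexus genes 3 separated above and 0 below, with a median of 0.06; the defining transthyretin gene Ttr read 7.35, 7.71, 6.49 and 6.77. Of 8 olfactory ensheathing and Schwann cell genes 3 separated above and 0 below, with a median of 0.64 that came from the bulb, where Frzb read 9.93 against at most 7.26 elsewhere. Of 5 measured erythroid genes 3 separated above and 0 below, with a median of 0.26. No member of these lists was called, and their part in the results was not tested.

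Of 12 immediate early genes 5 separated the sides above and 0 below, with a median of 0.19, and Fos read 7.54, 7.57, 7.36 and 7.31. None of 4 sex-linked genes separated the sides, with a median of -0.02.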

How the data were processed

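For each array the authors deposited log2 values of 35556 probe sets, between 2.43 and 14.57; the log2 scale was inferred from this range. They used Affymetrix Expression Console, per the submitters' processing notes. The version, the summarisation, the normalization and the build were not given in the sources used here. Array medians over all probe sets are alike, so a difference in total RNA between regions would not be visible.

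Probe sets were named through GEO's platform annotation: 21789 had 1 symbol, 1621 several and 12146 none. Only the first were used, and the probe set with the highest mean stood for each of 999 genes with several, which left 19938 genes, 19919 of them in the RefSeq table of GRCm38.p6. Genes entered the comparison if their highest level exceeded 8.56, the 50th percentile of gene levels. Nothing was tested, as no region has a second array. Lists were counted over all measured members, so that a floor could not select them.

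The members, lists and rules were chosen with earlier results of these data known. Genes named were Mki67, Top2a and Neurod1, the 15 with the widest gap each way (leaving out predicted genes, small RNAs, receptors of smell, pseudogenes and antigen receptor segments), up to 4 called members per list and direction, or the 2 widest where none was called, those beside the limit, and defining markers. Other named list members served as examples picked after their values were seen, and the lists of histone genes and of the Meg3 to Mirg interval were added at that point too. The software was Python 3.11.15 (pandas 2.3.3, NumPy 2.4.6, Matplotlib 3.10.9, SciPy 1.17.1).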

Additional observations from a re-analysis of the deposited data

How the results depend on the processing

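The counts of 89 genes above and 11 below were 86 and 11 after quantile normalization. They were 69 and 16 with each array centred on the median of its gene levels. With probe sets of a gene averaged they were 87 and 11, and with no level floor 96 and 13. Of the genes called, 86, 69 and 87 above and 10, 11 and 11 below were shared with the first 3 of these. They were 48 and 7 with a floor at the 75th percentile, 274 and 127 at a gap of 0.5, 3 and 0 at a gap of 2, and 291 and 133 by side means. Without 1 array, a choice made after seeing the data, they were 230 and 89 (cerebellum), 238 and 40 (bulb), 146 and 116 (pontine nucleus) and 245 and 128 (colliculus); a side of 1 level makes the rule looser. The floor at the 75th percentile left fewer members, and moved medians to 1.53 for mitosis, 0.85 for DNA replication, 1.23 for histones and -0.54 for the Meg3 interval, with 19, 0, 6 and 0 members called and 1 G1 and S phase regulator. The floor at the 50th percentile gave 1.14 for histones and -0.51 for the Meg3 interval. By side means 8 DNA replication genes, 6 G1 and S phase regulators and 15 genes of the Meg3 interval lay at least 1 apart. Medians near 0 changed sign: oligodendrocyte lineage to 0.25 at the floor of the 75th percentile, neuropeptides to -0.09 at the floor of the 50th, -0.0063 after quantile normalization and -0.06 after centring, blood vessels to -0.0019 and -0.0625 under those 2, and choroid plexus to -0.01 after centring; the cause was not tested. In the 100 bases before the start, CHR with CCAAT stood in 20.7% of mitosis promoters, 0% of DNA replication promoters and 1.14% of all. No paired analysis was possible because each region has a single array. The number of arrays limits every value: a difference between pools of the same region was not measured.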

Other observations

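Probe sets without a gene symbol were outside the comparison. Of 12146 such probe sets, 9 had a gap of at least 1 log2 unit with the cerebellum and bulb above (0.0741%) and 7 with them below (0.0576%), so the lean towards the cerebellum and bulb seen among named genes was small there. Some called genes were measured by several probe sets: the 3 probe sets of Cks2, a subunit of cyclin-dependent kinases, had gaps of 1.25, 1.36 and 1.38, the 2 of Pclaf, a PCNA partner, 1.06 and 1.42, and the 2 of Etv5, 1.06 and 1.10. The lower probe set of Kif14, a kinesin of cytokinesis, lay at background with a gap of 0.05 beside 1.13 for the other.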
